A study of Rattus norvegicus with 30 samples.

Results

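Igfbp5, the gene for insulin-like growth factor binding protein 5 (IGFBP5), was followed through osteogenesis (OS), adipogenesis (AD) and chondrogenesis (CH) of rat bone marrow mesenchymal stem cells (BMSCs). It was found by its symbol, which had 1 value in each of the 30 samples, and is 1 of 9999 gene names listed and 1 of 4363 that passed the filter on low values. The gene was picked because its levels in these samples were already known to differ. Its levels and differences are therefore given as a description, with no test.

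The cells were BMSCs of Sprague Dawley rats, taken from femur and tibia of 3 female animals 3 weeks old and used at passage 2, with no genetic modification stated. The 0 h group (CON) was undifferentiated, and the other 9 groups were 3 h, 12 h and 72 h (labelled 3d) in commercial osteogenic, adipogenic or chondrogenic medium. Each group had 3 samples, and each sample was a pool of 3 cultures, so an individual culture cannot be seen. It is not stated how the animals were divided over the pools, and the spread between samples may be smaller than that between animals. A sample is a bulk RNA measurement, in which fewer cells of a type and less RNA per cell cannot be told apart.

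IGFBPs are secreted proteins that bind IGF1 and IGF2 and limit or prolong their access to the IGF1 receptor. IGFBP5 is stored in bone matrix, is made by osteoblasts, fibroblasts and muscle cells among others, and also binds extracellular matrix. It is cut by several proteases, among them PAPP-A2, ADAM9 and complement C1s, and the cut releases bound IGF.

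Values are CPM, read counts scaled to the same total in every sample and not corrected for gene length, so levels are compared between samples and not between genes. The totals were 3899609 to 9046719 reads per sample, at which 3 reads were 0.332 to 0.769 CPM. Low values are not read as low expression here, because genes that every cell uses are also near 0 in the files: of 12 such genes listed, looked up after the values of others were seen, 6 had 0 reads in at least 1 sample. Actb, the cytoplasmic actin, had at most 39 reads, Ppia at most 3 and Mtor at most 1, whereas Rplp0 was at 2075 to 7542 CPM. Replicate 3 of OS 3 h, replicate 1 of AD 12 h and replicate 3 of AD 72 h stood apart from their groups over many genes, as described below. Among 11 stromal markers 6 were listed, and their sum was 8316 to 8911 CPM at 0 h, 3932 to 4089 at OS 72 h, 2850 to 3119 at CH 72 h and 646 to 801 at AD 72 h. Thy1 and Cd44 made up most of it, while Pdgfra, Pdgfrb, Eng and Vcam1 never exceeded 1.82 CPM. The 12 listed of 15 adipocyte markers summed to 2042 to 4092 CPM at AD 72 h against 1387 to 1546 at 0 h, beside 2407 to 4596 over the 3 h and 12 h groups of all lineages, 2126 to 2313 at OS 72 h and 1783 to 1896 at CH 72 h. Fasn and Lpl made up most of it, with Plin1 at most 3.48 CPM, Pparg at most 2.50 and Cd36 at most 0.221 in any sample. The 7 listed of 9 osteoblast markers summed to 3.47 to 5.77 CPM at OS 72 h and to 202 to 320 at CH 72 h, nearly all from Ibsp, with Sp7 and Alpl at most 0.368 CPM. The 8 listed of 10 chondrocyte markers summed to 1172 to 1516 CPM at CH 72 h, nearly all from Sox9, with Acan and Col2a1 at most 0.769 CPM. Apart from Fasn, Lpl, Ibsp and Sox9, no listed marker of these 3 cell types exceeded 121 CPM (Dgat2) in any sample, so the lists do not establish the cell types, and the lineages are named here by their medium. Over all samples the sums reached 4.08 CPM for macrophage and blood cell markers (3 listed of 12), 7.08 CPM for endothelial markers (3 of 6) and 516 CPM for muscle markers (6 of 7). The muscle sum, nearly all from Cnn1 and Tagln, was 99.0 to 105 CPM at 0 h, 347 to 516 in the 3 h groups, 96.7 to 97.8 at OS 12 h, 23.6 to 32.2 at AD 12 h and 428 to 487 at CH 12 h. At 72 h it was 5.30 to 10.9 in OS, 6.21 to 9.98 in AD and 80.0 to 85.4 in CH. The part of these marker changes in the Igfbp5 values was not tested.

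At 0 h, Igfbp5 had few reads. The 3 samples were at 3.87, 5.99 and 6.67 CPM, from 27, 43 and 44 reads (mean 5.51 ± 1.46 CPM, SD, n = 3). Counting error alone gives the lowest of them a 95% interval of 2.55 to 5.63 CPM (exact binomial, counting error only), so small changes from 0 h are imprecise.

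In osteogenesis, Igfbp5 was below its 0 h level at 3 h and 12 h and above it at 72 h. The OS 3 h samples were at 3.60, 1.42 and 1.38 CPM, from 23, 9 and 10 reads (mean 2.14 ± 1.27 CPM). Replicate 1 lay just under the lowest 0 h sample and inside its counting interval. The OS 12 h samples were close together at 1.96, 2.24 and 2.44 CPM, all below 0 h. At OS 72 h the values were 44.2, 51.8 and 53.2 CPM (mean 49.7 ± 4.86 CPM), all above every earlier osteogenic sample. That mean was 9.02-fold that of 0 h and 22.5-fold that of OS 12 h. On the scale of log2(CPM + 1) the mean differences from 0 h were -1.10, -0.99 and 2.98 at 3 h, 12 h and 72 h. Adding 1 to values this low shrinks their log2 differences. The OS 3 h and OS 12 h means were 2.58-fold and 2.49-fold below that of 0 h, and edgeR gave -1.58 at 12 h.

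In adipogenesis, Igfbp5 overlapped its 0 h level at 3 h and was far above it at 12 h and 72 h, with a wide spread at both later times. The AD 3 h samples were at 3.65, 1.89 and 4.16 CPM, a range that overlapped that of 0 h. At AD 12 h they were at 767, 166 and 174 CPM, from 5242, 904 and 938 reads (mean 369 ± 345 CPM). Replicate 1 was 4.51-fold above the mean of the other two, which differed little from each other. At AD 72 h the samples were at 14952, 14956 and 380 CPM, from 83974, 84335 and 2402 reads (mean 10096 ± 8414 CPM). Replicate 3 was 39.3-fold below the mean of the others and below replicate 1 of AD 12 h, so the ranges of the 2 times overlapped. The AD 72 h mean was 1832-fold that of 0 h, 2714-fold without replicate 3, and replicate 3 alone was 69.1-fold above 0 h. On the log2(CPM + 1) scale the differences from 0 h were -0.64, 5.46 and 9.43 at 3 h, 12 h and 72 h, with 4.74 at 12 h without replicate 1 and 11.19 at 72 h without replicate 3.

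In chondrogenesis, Igfbp5 was higher at each time than at the one before, with no overlap between successive groups. The CH 3 h samples were at 13.2, 17.0 and 15.9 CPM (mean 15.4 ± 1.97 CPM), 2.79-fold above 0 h. The CH 12 h samples were at 139, 149 and 138 CPM (mean 142 ± 5.69 CPM), 9.25-fold above CH 3 h. At CH 72 h they reached 33332, 32936 and 31633 CPM, from 129980, 148972 and 142258 reads (mean 32633 ± 889 CPM). These 3 samples agreed closely, and their mean was 230-fold that of CH 12 h and 5923-fold that of 0 h. Of all reads of those samples, 3.16% to 3.33% came from Igfbp5. On the log2(CPM + 1) scale the differences from 0 h were 1.35, 4.48 and 12.32 at 3 h, 12 h and 72 h, with 11.16 at 72 h under quantile normalization.

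**Figure D1:**
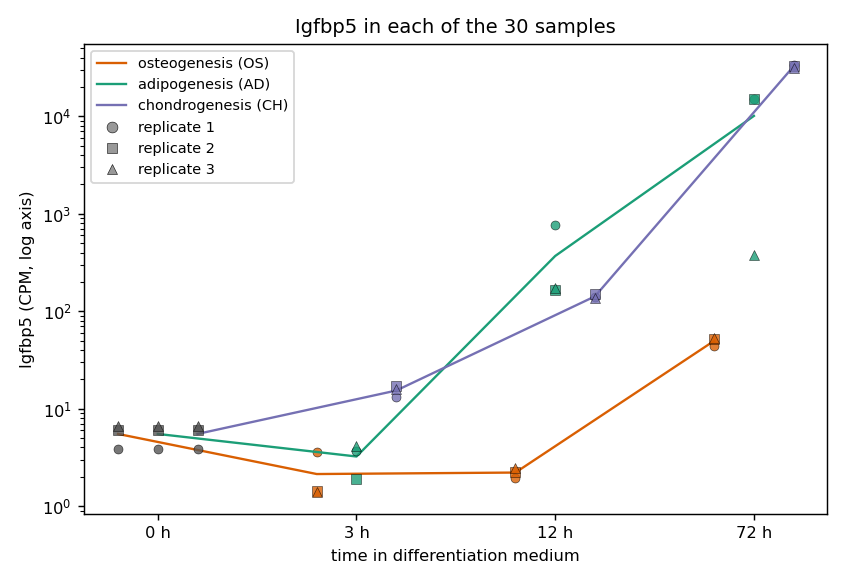
Igfbp5 in CPM (log axis) against time in medium for the 3 lineages, with each sample as a point (shape: replicate) and lines through the group means; the 3 samples at 0 h are drawn once for each lineage. The 3 CH 72 h samples lie together between 31633 and 33332 CPM, while replicate 3 of AD 72 h lies at 380 CPM, away from the other two at 14952 and 14956 CPM.

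Of the 9 groups, 8 had no sample within the range of 0 h, and AD 3 h was the exception. Among all genes and all 9 comparisons with 0 h, 16.8% passed the threshold used below, a background from which nothing is read for a gene picked on these values. Ordered from the largest rise to the largest fall among the 4363 genes, the Igfbp5 difference from 0 h was in place 4105 and 4041 at OS 3 h and OS 12 h and in place 32 at OS 72 h. In adipogenesis it was in place 3800 at 3 h and in place 1 at both 12 h and 72 h. In chondrogenesis it was in place 325, 5 and 2 at 3 h, 12 h and 72 h, with Angptl7 in place 1 at 72 h. All 9 differences share the 3 samples of 0 h, so they are not independent of each other.

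From the lowest mean to the highest, the order of the 10 groups was OS 3 h, OS 12 h, AD 3 h, 0 h, CH 3 h, OS 72 h, CH 12 h, AD 12 h, AD 72 h and CH 72 h. Among the 4 lowest groups each overlapped the next, so neighbours there are not separated beyond the spread, although OS 3 h and OS 12 h did not overlap 0 h. The 0 h group, CH 3 h, OS 72 h and CH 12 h did not overlap, with steps of 2.79-fold, 3.24-fold and 2.86-fold between their means. CH 12 h and AD 12 h were separated by only 149 against 166 CPM, and without replicate 1 of AD 12 h their means differed 1.20-fold. AD 12 h and AD 72 h overlapped through the outlying samples of each, and the means differed 27.4-fold, 40.5-fold without replicate 3 of AD 72 h and 88.0-fold without replicate 1 of AD 12 h as well.

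Between lineages at the same time, OS had the lowest mean at 3 h, 12 h and 72 h. At 3 h, CH was 7.19-fold above OS and 4.75-fold above AD, with no overlap, while OS and AD overlapped. At 12 h, AD was 167-fold and CH 64.2-fold above OS, again with no overlap, and AD was 76.8-fold above OS without replicate 1 of AD 12 h. On the log2(CPM + 1) scale the difference of OS from AD was -6.46 at 12 h and -6.44 at 72 h, and that from CH was -5.48 and -9.33. Without replicate 1 of AD 12 h, AD was 5.74 log2 units above OS at 12 h, and without replicate 3 of AD 72 h the difference of OS from AD at 72 h was -8.21. At 72 h, CH was 656-fold above OS and 3.23-fold above AD, and AD was 203-fold above OS. Without replicate 3 of AD 72 h these became 2.18-fold for CH over AD and 301-fold for AD over OS. Even the lowest AD 72 h sample was 7.15-fold above the highest OS 72 h sample, and the lowest CH 72 h sample was 2.12-fold above the highest of AD 72 h.

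The 2 adipogenic samples that stood apart for Igfbp5 also stood apart for other genes. Of 1728 genes with a mean of at least 10 CPM at AD 72 h, 51 were more than 2 log2 units from the mean of the others in replicate 3, 49 of them below. Igfbp5 was in place 4 from below, with a log2 difference of -5.29. Ahead of it were Cxcl14, a chemokine, at 0.475 against 75.9 and 78.0 CPM, Lum, the matrix proteoglycan lumican, at 27.1 against 1355 and 1513 CPM, and Sfrp2, a secreted Wnt modulator, at 36.7 against 1702 and 1696 CPM. Next after it were Cxcl6, a chemokine, at 8.08 against 275 to 326 CPM, and Hpgd, which inactivates prostaglandins, at 1.58 against 63.6 to 65.8 CPM. Car4, Itgbl1, C5ar2 and Lgr5 followed, with log2 differences of -4.66, -4.19, -3.95 and -3.95.

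Fewer genes were far higher in that sample. Mpzl2 was at 36.6 against 3.19 to 3.92 CPM and Maob, a mitochondrial amine oxidase, at 171 against 30.5 to 32.0 CPM, and these were the 2 genes more than 2 log2 units above. Lpl, the lipoprotein lipase of adipocytes, was at 3216 against 1160 and 1387 CPM, whereas Cfd, the adipocyte-secreted factor D, was at 7.29 against 32.9 and 31.0 CPM. Gem, Notch1, Slc38a2, Nxph3, Stc1, Sqstm1 and Bag3 were the others of the 10 furthest above, with log2 differences of 1.19 to 1.72. The sample had 6313113 reads, against 5616285 and 5638906, of which 38.9% fell on the listed genes, against 47.9% and 49.0%. Its adipocyte marker sum, 4092 CPM, was the highest of the group, and its macrophage and blood cell marker sum, 2.38 CPM, the lowest. The 3 listed markers of that sum did not go the same way. Adgre1 was at 0.317 against 1.60 and 2.84 CPM, but Lyz2 was highest in replicate 3, at 2.06 against 1.42 and 1.24 CPM. Csf1r was at 0 CPM in replicates 2 and 3 and at 0.178 CPM in replicate 1. What these differences contribute to the Igfbp5 value was not tested.

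**Figure D2:**
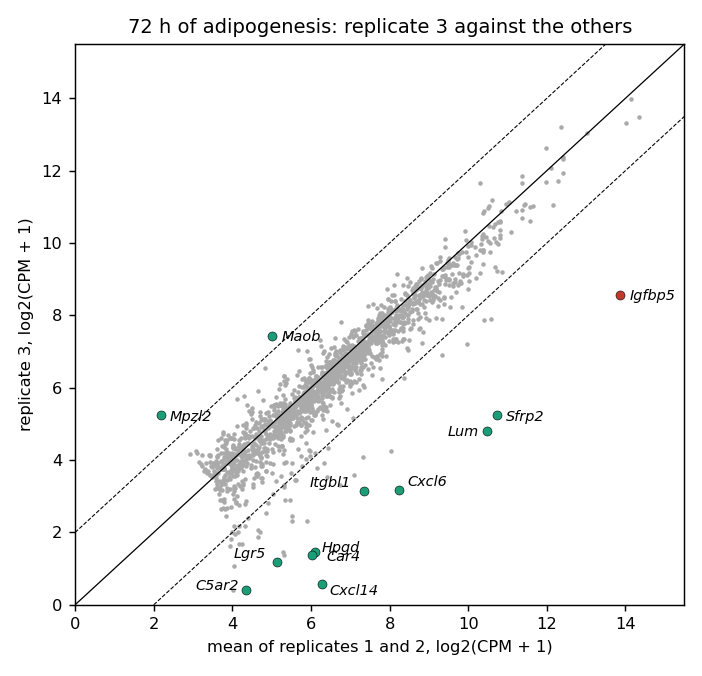
Each of 1728 genes at AD 72 h as log2(CPM + 1) in replicate 3 (vertical) against the mean of replicates 1 and 2 (horizontal); the solid line marks equal values and the dashed lines 2 log2 units to either side. Igfbp5 (red) lies under the line by a log2 difference of -5.29, with Cxcl14, Lum and Sfrp2 further from it, and 51 genes fall outside the dashed lines.

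Replicate 1 of AD 12 h stood apart for 15 of 1774 genes, 9 of them above the others, and Igfbp5 was in place 8 from above (log2 difference 2.17). The genes of that sample were looked up after their values were seen. Kprp was furthest above, at 197 against 7.22 and 9.39 CPM, and Sfrp2 was at 29.7 against 5.16 and 6.29 CPM. Lpl was below, at 253 against 1093 and 1028 CPM. Of its 6836525 reads 64.6% fell on the listed genes, against 54.2% and 54.3% of 5430518 and 5405033 reads, and the part of this in the Igfbp5 value was not tested. The genes low in replicate 3 of AD 72 h did not all behave alike here: Igfbp6, Grb14 and Sfrp2 were highest in replicate 1 of AD 12 h, as Igfbp5 was, but Lum was lowest in it, at 20.0 against 45.1 and 44.4 CPM, and so was Mmp2, a matrix metalloprotease, at 9202 against 13827 and 14135 CPM.

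Replicate 3 of OS 3 h stood apart over more genes than replicate 1 of AD 12 h, but less far. It had 131 of 1772 genes more than 1 log2 unit from the mean of its group's others and 4 more than 2 units, beside 165 and 51 in replicate 3 of AD 72 h and 90 and 15 in replicate 1 of AD 12 h. In the 23 samples outside AD 12 h and AD 72 h other than it, these numbers were at most 16 and 1. Its Igfbp5 value, 1.38 CPM, was close to the 1.42 CPM of replicate 2, and without it the difference of OS 3 h from 0 h was -0.94 in place of -1.10 and CH was 6.11-fold above OS at 3 h. Igfbp6 was at 308 CPM in it against 160 and 169, Igfbp3 at 8.30 against 0.313 and 0.474, and Socs2 at 11.9 against 25.4 and 25.6 CPM. Without it the IGF system calls given below were 61 against 0 h and 34 between lineages.

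To set Igfbp5 beside its pathway, 47 genes of the IGF system in 5 groups were looked up, of which 28 were listed and 15 passed the filter (1 CPM or more in 3 or more samples). The other 19 were not analysed here. The 15 genes were tested with limma on log2(CPM + 1), and a gene was counted as changed where its log2 fold change reached 1 in either direction with an adjusted p under 0.05. Since the filter keeps a gene that is high in a single group, the counts below describe the tested genes and not the whole list.

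IGF ligands, receptors and the binding partners of IGFBP5 had few or no reads, as had Actb and Akt1, so whether the cells lacked these transcripts cannot be read from the files. Of the 4 listed ligands and receptors none passed the filter. Igf1, the main ligand, had 10, 10 and 0 reads in the AD 72 h samples, which are 1.78, 1.77 and 0 CPM, and at most 1 read in any other sample. The sample without a read was replicate 3, the one in which Igfbp5 was low. Igf2 had at most 2 reads, Igf1r at most 4 and Insrr at most 6. The binding partners Spp1 and Vtn had at most 5 reads and 1 read.

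Against 0 h, 61 of 135 gene and comparison pairs of the 15 genes (45.2%) passed the threshold, beside 16.8% over all genes. Of these 14 were higher and 47 lower, beside 10.5% higher and 6.27% lower over all genes. In osteogenesis 7, 7 and 6 of the 15 passed at 3 h, 12 h and 72 h, where 18.4%, 21.8% and 12.5% of all genes did. In adipogenesis 8 passed at each time, against 18.8%, 13.7% and 15.3% of all genes. In chondrogenesis 6, 7 and 4 passed, against 18%, 14.4% and 18%. The median log2 fold change of the 15 was -0.58, -0.86 and 0.45 in osteogenesis, -0.24, 0.10 and 0.35 in adipogenesis, and -0.73, -0.78 and -0.25 in chondrogenesis, where the medians of all genes lay between -0.05 and 0.21. Akt2, Foxo3 and Adam9 passed in no comparison. The 135 pairs are 15 genes counted 9 times against the same 0 h samples, so they are not independent. Stc1, C1s, Adamts1 and Igfbp6 gave 9, 8, 7 and 7 of the 61. The share over all genes was not matched for level, and in simulated data the test missed changes only in genes with a mean under 10 CPM. Both limits hold for the counts by group of genes below.

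**Figure D3:**
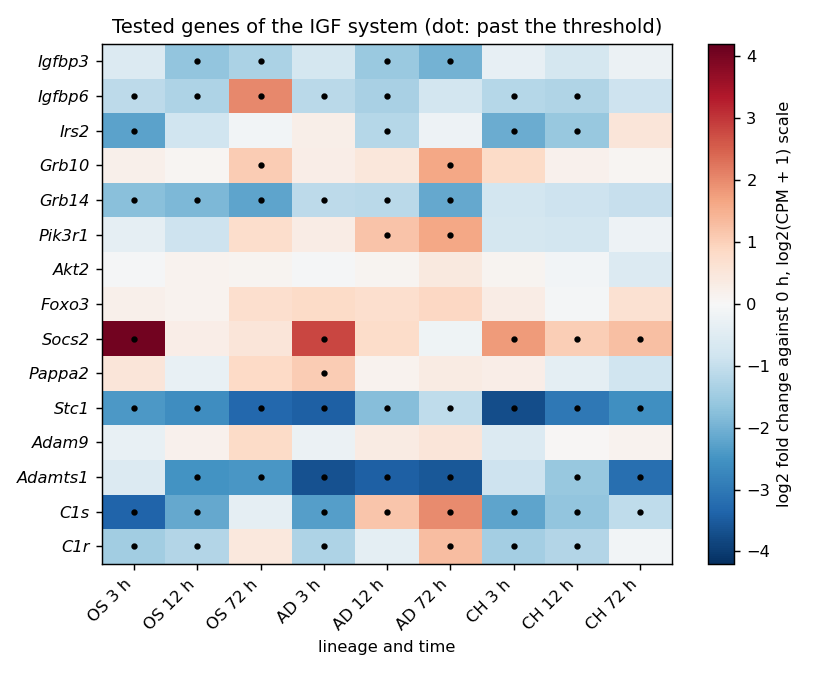
Log2 fold change against 0 h on the log2(CPM + 1) scale for the 15 tested genes of the IGF system (rows) in 9 lineage and time groups (columns); a dot marks a gene past the threshold. Blue, lower than 0 h, prevails for Stc1, Adamts1, Grb14 and Igfbp3, and C1s and C1r turn from blue at 3 h to red at AD 72 h.

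Of the other binding proteins, Igfbp6 was lower than 0 h at OS 3 h and 12 h and higher at OS 72 h, as Igfbp5 was, but did not pass the threshold at AD 72 h or CH 72 h, where Igfbp5 was highest. Of 8 looked up, 6 were listed and 2 passed the filter, Igfbp6 and Igfbp3. Igfbp6 encodes a binding protein that prefers IGF2. It was at 417 to 446 CPM at 0 h and lower in every sample of 3 h and 12 h, where 6 of 6 comparisons passed. That at OS 3 h (-1.10) missed the threshold without replicate 1 or replicate 2 of OS 3 h (-0.92 and -0.96), and that at AD 12 h in a fit of those 6 samples alone (adjusted p = 0.0681), where replicate 1 was at 349 CPM against 126 and 110. At OS 72 h it was at 1628, 1798 and 1874 CPM, 4.07-fold above 0 h (log2 fold change 2.02, SE 0.31, adjusted p = 5e-06), higher in 3 of 3 samples. At AD 72 h it was at 348, 361 and 131 CPM and at CH 72 h at 289, 226 and 201 CPM, neither past the threshold. At 72 h Igfbp6 was therefore highest in OS, where Igfbp5 was lowest of the lineages. Igfbp6 in OS exceeded AD by 2.79 (adjusted p = 2.32e-08) and CH by 2.90 (adjusted p = 4.43e-09) on the log2 scale.

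Igfbp3, the main carrier of IGF in serum, had few reads throughout and was at 1.81 to 4.55 CPM at 0 h. It was lower at OS 12 h, OS 72 h, AD 12 h and AD 72 h by the test, with 0 reads in all 3 AD 72 h samples. The call at OS 72 h was lost on leaving out any of 4 samples (adjusted p of 0.0527 to 0.127) and without the filter (adjusted p = 0.0672), and that at AD 12 h without replicate 3 of 0 h (adjusted p = 0.0548). OS 3 h held 0.313, 0.474 and 8.30 CPM, so 1 sample there was above every sample of 0 h. Igfbp1, Igfbp2, Igfbpl1 and Igfals, the acid labile subunit, had at most 7 reads in any sample.

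Among genes for proteases that cut IGFBPs and their inhibitors, 8 of 13 were listed and 6 tested, and 31 of 54 pairs passed against 0 h, 4 higher and 27 lower, beside 16.8%, 10.5% and 6.27% over all genes. Stc1, stanniocalcin 1, an inhibitor of PAPP-A, was at 67.6 to 71.4 CPM at 0 h and lower in all 9 groups. The lowest was CH 3 h at 3.81 to 4.55 CPM (log2 fold change -3.74, SE 0.25, adjusted p = 3.95e-13, 3 of 3 samples). At AD 72 h Stc1 was at 22.1, 26.2 and 59.1 CPM, the highest again being replicate 3, and its change of -1.07 missed the threshold without replicate 1 or replicate 2 (-0.80 and -0.92), under each of the 3 scalings (-0.88 to -0.81) with edgeR (-0.76) and in the 6-sample fit (adjusted p = 0.0851). Adamts1, a secreted metalloprotease, was at 8337 to 8703 CPM at 0 h and at 656 to 722 CPM at AD 3 h (log2 fold change -3.65, SE 0.14, adjusted p = 1.18e-18, 3 of 3 samples). It was lower in every lineage at the later times, with log2 fold changes of -2.52 and -2.44 in OS, -3.44 and -3.56 in AD and -1.58 and -3.18 in CH at 12 h and 72 h, all past the threshold. At OS 3 h and CH 3 h its change was -0.59 and -0.85, under the threshold, and it was 3.06 and 2.79 log2 units above AD 3 h (adjusted p = 3.67e-16 and 7.12e-16).

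C1s and C1r encode the serine proteases of the first complement component, of which C1s can cut IGFBP5. C1s was at 15.8, 24.9 and 19.6 CPM at 0 h, lower in every lineage at 3 h, and higher in adipogenesis afterwards. At AD 12 h it was at 29.5, 55.8 and 56.2 CPM (log2 fold change 1.16, which fell under the threshold with median-ratio or quantile scaling, at 0.92 and 0.94), and at AD 72 h at 78.3, 74.8 and 93.6 CPM (4.10-fold, adjusted p = 1.16e-06, higher in 3 of 3 samples). Its replicate 3 at AD 72 h was the highest of the group, the reverse of Igfbp5. At CH 72 h, where Igfbp5 was highest, C1s was at 4.87, 13.7 and 10.01 CPM, 3.08 log2 units below AD 72 h (adjusted p = 1.6e-10). C1r was at 324 to 382 CPM at 0 h, at 102 to 147 CPM in the 9 samples of 3 h, and at 1090, 952 and 638 CPM at AD 72 h (log2 fold change 1.31, SE 0.15, adjusted p = 3.35e-08, 3 of 3 samples). Pappa2, a protease of IGFBP5 and IGFBP3, was at 0.445 to 5.97 CPM and passed the test against 0 h at AD 3 h (5.205 to 5.97 against 1.72 to 3.03 CPM), a call that was lost without replicate 1 or 2 of 0 h (0.95 and 0.97) and under the 3 scalings. Adam9 was at 411 to 1202 CPM. Htra1 and Adam28 had at most 3 and 12 reads.

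**Figure D4:**
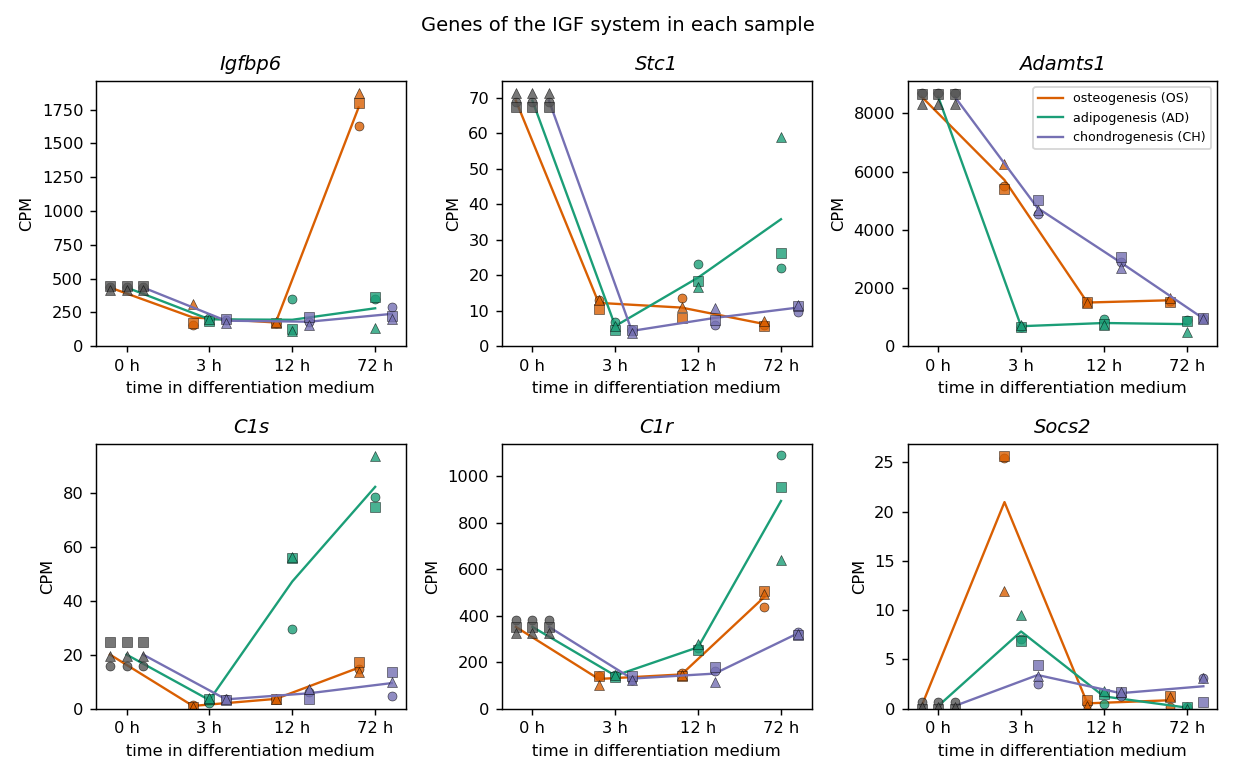
CPM of Igfbp6, Stc1, Adamts1, C1s, C1r and Socs2 against time in medium for the 3 lineages, with each sample as a point (circle, square and triangle for replicates 1, 2 and 3) and lines through the group means. Igfbp6 is highest at OS 72 h (1628 to 1874 CPM), C1s and C1r at AD 72 h, and Stc1 and Adamts1 at 0 h.

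Among IGF signalling genes, 8 of 14 were listed and 7 tested, and 19 of 63 pairs passed against 0 h, 9 higher and 10 lower, beside the same 16.8%, 10.5% and 6.27% over all genes. Irs2, an adaptor of the insulin and IGF1 receptors, was at 117 to 165 CPM at 0 h and at 24.8 to 31.3 CPM at OS 3 h (log2 fold change -2.24, SE 0.14, adjusted p = 9.67e-14) and 31.7 to 32.5 CPM at CH 3 h, lower in 3 of 3 samples each. AD 3 h differed from both at 155 to 174 CPM (adjusted p = 4.39e-14 and 8.08e-14). Irs2 was lower at AD 12 h too, at 51.2 to 67.6 CPM (-1.19, adjusted p = 6.59e-08), and at CH 12 h, at 40.2 to 48.5 CPM (-1.61, adjusted p = 1.95e-10), while no group passed at 72 h. Pik3r1, the regulatory subunit of phosphoinositide 3-kinase, was at 122 to 130 CPM at 0 h and rose at AD 12 h and AD 72 h. The rise at AD 12 h fell under the fold change threshold with median-ratio or quantile scaling (0.93 and 0.90). At AD 72 h Pik3r1 was at 375 to 400 CPM (log2 fold change 1.62, SE 0.13, adjusted p = 1.25e-11, 3 of 3 samples). Its OS 72 h samples, at 202 to 223 CPM, did not pass. Grb10, an inhibitory adaptor of these receptors, rose at OS 72 h (10.6 to 14.6 CPM) and AD 72 h (18.4 to 19.8 CPM) from 4.55 to 6.02 CPM at 0 h. The call at OS 72 h (1.08) was lost without replicate 3 of 0 h or replicate 1 of OS 72 h (0.97 and 0.98) and under median-ratio scaling (0.95).

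Grb14, a related adaptor, was at 329 to 342 CPM at 0 h and lower in osteogenesis, at 68.2 to 72.9 CPM at 72 h (log2 fold change -2.23, SE 0.44, adjusted p = 0.000211, 3 of 3 samples). At AD 12 h it was at 281, 116 and 111 CPM and at AD 72 h at 153, 164 and 15.8 CPM, so its outlying samples were those of Igfbp5. Its calls at AD 3 h and AD 12 h (-1.09 and -1.12) were lost under 8 alternatives each, most of them the omission of 1 sample (adjusted p of 0.0825 to 0.190), and that at AD 72 h (-2.16) was lost in the 6-sample fit (adjusted p = 0.140) and was -1.08 without replicate 3, still past the threshold. Socs2, an inhibitor of growth hormone signalling, had 5, 0 and 1 reads at 0 h and was at 25.4, 25.6 and 11.9 CPM at OS 3 h, 6.92 to 9.52 CPM at AD 3 h and 2.55 to 4.40 CPM at CH 3 h, past the threshold in each. It also passed at CH 12 h (1.04, adjusted p = 0.0177) and CH 72 h (1.27, adjusted p = 0.00384). The call at CH 12 h was lost on leaving out any of 4 samples (adjusted p of 0.0524 to 0.0881). It was also lost under median-ratio scaling (0.95) and scaling to the same sum over listed genes (0.96). Akt1, a kinase that every cell uses, had 0 reads in 28 of 30 samples and at most 2 in the others.

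Between lineages at the same time, 33 of 135 pairs (24.4%) passed, beside 14.0% over all genes. The first named lineage was higher in 13 and lower in 20, beside 7.48% and 6.51% over all genes. OS and AD differed in 4, 2 and 4 of the 15 genes at 3 h, 12 h and 72 h, where 7.66%, 13.2% and 13.7% of all genes did. OS and CH differed in 3, 0 and 3, against 7.31%, 16.0% and 19.6%. For the 0 at 12 h by limma, 5 of the 15 had an unadjusted p under 0.05, and edgeR called 2. CH and AD differed in 4, 4 and 9, against 9.35%, 13.6% and 25.5%. The comparison with the most IGF system calls, CH against AD at 72 h, was also the one with the most calls over all genes.

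Likeness to Igfbp5 was measured as Pearson's r of log2(CPM + 1) over the 30 samples, which share groups and depth, so r is a description without a p. The highest value was that of Cdon, a cell surface co-receptor of hedgehog signalling (r = 0.88). Its lowest group was OS 3 h at 134 to 142 CPM, it was at 222 to 232 CPM at 0 h, and at CH 72 h it was at 526 to 527 CPM. At AD 72 h Cdon was at 779, 712 and 298 CPM, with replicate 3 lowest as for Igfbp5, while at AD 12 h replicate 1 was its lowest sample at 337 CPM. Its range over the groups was far narrower than that of Igfbp5, since its highest group mean was 596 and its lowest 137 CPM.

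Of the other 9 genes, Gstz1, an enzyme of tyrosine breakdown (r = 0.86), was at 22.4 to 26.2 CPM at 0 h and 45.1 to 57.4 CPM at CH 72 h. Rnf144a, a ubiquitin ligase, and Plxdc2, a membrane protein (r = 0.86 each), reached 141 to 164 CPM and 192 to 265 CPM at CH 72 h from 6.96 to 13.2 and 3.87 to 4.55 CPM at 0 h. Both were far lower at AD 72 h, at 13.5 to 21.5 and 4.28 to 20.2 CPM. Deptor, an mTOR inhibitor (r = 0.87), Rbp4, the retinol carrier (r = 0.87), Lrrc4 (r = 0.86), Itm2a (r = 0.86), Slitrk2 (r = 0.86) and Lipm (r = 0.85) had group means of at most 20.1 CPM, with Deptor and Lipm at most 1.57 CPM, so their r rests on few reads. With Spearman's rho 3 of the 10 stayed among the first 10, and with the 10 group means 6 did. Cdon was first by Spearman's rho but was not among the first 10 with the group means, where Rasd1 led (r = 0.95), and it was second to Thbs3 under median-ratio scaling and to Gstz1 without replicate 3 of AD 72 h.

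The genes most opposite to Igfbp5 were Ctnna1, the adhesion protein alpha-catenin (r = -0.88), Ppp2cb, a catalytic subunit of protein phosphatase 2A (r = -0.87), Fez2 (r = -0.87), Ramp3, a receptor activity modifying protein (r = -0.87), and Por, the electron donor of cytochrome P450 (r = -0.87). Ramp3 had the widest range of these as a fold between group means, from 922 CPM at OS 3 h to 41.2 CPM at CH 72 h. The OS 3 h mean held replicate 3 at 1363 CPM. Ramp3 was at 787 to 887 CPM at 0 h and at 39.1 to 45.1 CPM at CH 72 h. It was at 75.9, 94.9 and 19.0 CPM at AD 72 h, so replicate 3 was low for Ramp3 as well as for Igfbp5. Ctnna1 went from 295 to 328 CPM at 0 h to 140 to 168 CPM at CH 72 h.

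**Figure D5:**
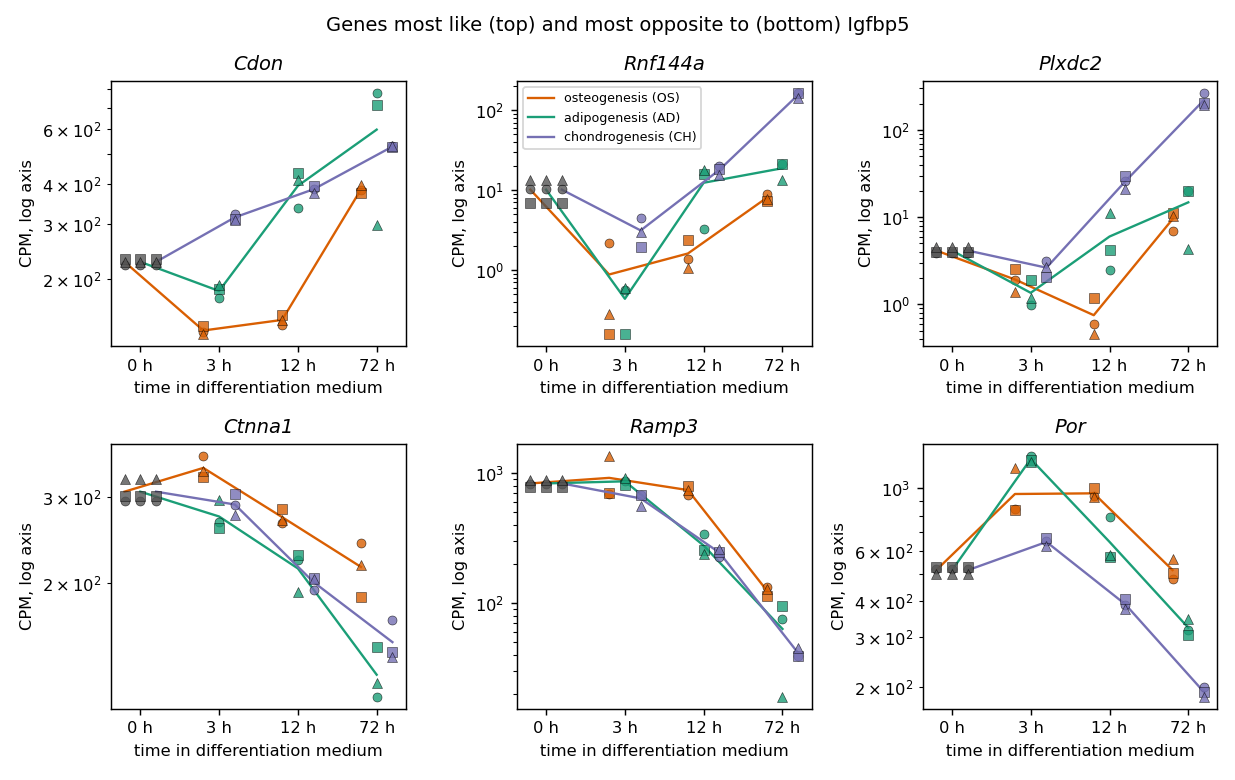
CPM (log axis) against time in medium of 3 of the 10 genes most like Igfbp5 (Cdon, Rnf144a and Plxdc2, top) and 3 of the 5 most opposite to it (Ctnna1, Ramp3 and Por, bottom), with each sample as a point (circle, square and triangle for replicates 1, 2 and 3) and lines through the group means. The top genes end highest in CH or AD at 72 h, with Cdon at 526 to 527 CPM at CH 72 h, and Ramp3 ends at 39.1 to 45.1 CPM there.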

How the data were processed

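RNA of 30 samples (10 groups of 3) was sequenced by the study. The labels' protocol names removal of ribosomal RNA and the study's methods an mRNA kit. Per the labels, Trimmomatic, HISAT2 and StringTie were used; versions, genome build and annotation are not given in the sources used here. The authors deposited 1 value per gene under the name FPKM, but the deposited values are CPM: 100.0% were whole multiples of the value of 1 read (tolerance 0.02), which gave reads and totals. Of 10803 values per sample, those under 729 repeated gene names (C1s and Pik3r1 among them) were summed, giving 9999 names, which held 38.9% to 71.4% of the totals.

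The 4363 names that reached 1 CPM in 3 or more samples entered limma 3.58.1 (R 4.3.3, eBayes with trend) on log2(CPM + 1), in 1 model of 10 groups without covariates, Benjamini-Hochberg adjusted over all tested names of a comparison; the threshold was a log2 fold change of 1 and an adjusted p of 0.05. Tested on simulated data for AD 72 h against 0 h (4363 genes, 200 changed), limma recovered 138 and called 0 of 4163 unchanged genes. All 77 changed genes with a mean of 10 CPM or more were recovered, so the misses were lower genes. The simulated samples varied around the 0 h means with the same small spread and no outlying replicate. The real AD 72 h group has one, so the simulation does not show how the test behaves there. P-values measure the spread between pooled samples. The gene, the IGF and marker lists and the tests were chosen with earlier results of these data known. Named were Igfbp5, IGF system genes, the 10 genes most like and 5 most opposite to it, and the 10 furthest below and above in replicate 3 of AD 72 h. Alternatives were a pseudocount of 0.1, no filter, 3 scalings, 6-sample fits, a replicate block, edgeR 4.0.16 on recovered reads, names kept apart and samples left out. Figures were drawn with matplotlib 3.10.9 in Python 3.11.15.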

Additional observations from a re-analysis of the deposited data

Results flagged for a closer look

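For Igfbp5 the lineages moved to opposite sides of 0 h at 2 times, and these differences were not tested. At 3 h every OS sample lay below and every CH sample above the 0 h samples, with a difference between the log2 changes of -2.45. At 12 h the same held for OS against AD (-6.46) and for OS against CH (-5.48), and AD was 5.74 log2 units above OS without replicate 1 of AD 12 h. The highest OS 3 h sample lay only just below 0 h, at 3.60 against 3.87 CPM (23 and 27 reads), inside the counting interval of that 0 h sample.

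For the other IGF system genes, the difference between lineages at the same time passed the limma test in 33 cases, given here as log2 fold changes of the first named over the second lineage. At 3 h, OS against AD differed for Adamts1 (3.06), C1s (-1.03), Irs2 (-2.47) and Socs2 (1.25). OS against CH at 3 h differed for C1s (-1.14), Socs2 (2.26) and Stc1 (1.32). CH against AD at 3 h differed for Adamts1 (2.79), Irs2 (-2.31), Pik3r1 (-1.05) and Socs2 (-1.01).

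At 12 h, OS against AD differed for C1s (-3.31) and Pik3r1 (-2.04), and CH against AD for Adamts1 (1.86), C1s (-2.82), Pik3r1 (-1.97) and Stc1 (-1.20). At 72 h, OS against AD differed for Adamts1 (1.11), C1s (-2.36), Igfbp6 (2.79) and Stc1 (-2.22), and OS against CH for Grb14 (-1.25), Igfbp6 (2.90) and Pappa2 (1.67). CH against AD at 72 h differed for C1r (-1.43), C1s (-3.08), Grb10 (-1.55), Grb14 (1.18), Igfbp3 (1.72), Pappa2 (-1.18), Pik3r1 (-1.85), Socs2 (1.44) and Stc1 (-1.50). Igfbp3 had 0 reads in all AD 72 h samples. Without replicate 3 of AD 72 h, Adamts1 in OS against AD (0.83) and Grb14 (0.10) and Pappa2 (-0.86) in CH against AD did not pass, and Grb14 in CH against AD did not pass without any 1 of the CH 72 h samples either. At 3 h, C1s in OS against AD was lost without replicate 2 or 3 of either group (-0.98 to -0.90), Socs2 in OS against AD without replicate 1 or 2 of OS (1.07 and 1.08), Pik3r1 in CH against AD without replicate 1 of AD (-0.98), and Socs2 in CH against AD without any 1 AD sample or replicate 1 or 3 of CH (-1.08 to -0.86). At 72 h, Grb14 in OS against CH was lost without replicate 1 or 2 of OS or replicate 1 or 3 of CH (adjusted p of 0.0509 to 0.0756). Under other settings, Adamts1 in OS against AD at 72 h was lost with edgeR (0.77) and under the 3 scalings (0.62 to 0.77), and Grb14 in CH against AD at 72 h with edgeR (0.46), under the 3 scalings (0.69 to 0.97), without the filter and in the 6-sample fit (adjusted p = 0.0680 and 0.329). C1s at 3 h was lost under quantile scaling in OS against CH (-0.99) and OS against AD (-0.87), and the latter also under median-ratio scaling (-0.999) and in the 6-sample fit (adjusted p = 0.0648). Socs2 at 3 h was lost with a pseudocount of 0.1 in OS against AD and CH against AD (adjusted p = 0.227 and 0.296), the former also in the 6-sample fit (adjusted p = 0.0754) and the latter with edgeR and without the filter (adjusted p = 0.0512 and 0.0621), and Grb14 in OS against CH at 72 h was lost without the filter (adjusted p = 0.0619).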

How the results depend on the processing

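Of 99 recomputed Igfbp5 differences from 0 h, 97 moved by less than the spread between replicates and 0 changed sign. Leaving out 1 of 3 samples shifts a group mean by less than that group's own SD. For those recomputed differences the outcome was therefore largely fixed, and it does not show that they are robust. At AD 72 h the SD on the log2 scale was 3.06 with replicate 3 in it, so a change from 9.43 to 11.19 counted as not moved. The 2 differences that moved more were OS 12 h under edgeR (-1.58) and CH 72 h under quantile normalization (11.16), and the cause was not tested. Leaving out 1 sample gave log2 differences of -1.41 to -0.94, -1.19 to -0.86 and 2.79 to 3.12 in OS, -0.83 to -0.38, 4.74 to 5.84 and 8.55 to 11.19 in AD, and 1.15 to 1.48, 4.29 to 4.62 and 12.12 to 12.45 in CH at 3 h, 12 h and 72 h.

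The 61 IGF system calls against 0 h became 57 to 70 under the other settings and 56 to 62 with 1 sample left out; the 33 between lineages became 30 to 41 and 31 to 35. Over all tested names, edgeR on the recovered reads made 8094 calls in the comparisons with 0 h, against 6582 by limma, and 6697 against 5492 between lineages. With both outlying adipogenic samples left out, chosen after seeing the data, they were 62 and 34. Of the 61 calls, 47 were kept in every setting and 14 lost in at least 1, none with a change of sign; of the 33, 24 and 9. The replicate numbers did not pair the samples (correlations -0.168 to 0.096), and the replicate block gave 61 and 33 calls, the same ones. Median-ratio scaling shifted the median gene by -0.26 to 0.17 against 0 h and cost 6 of the 61 calls, among them C1s and Pik3r1 at AD 12 h and Stc1 at AD 72 h. Igfbp5 at 0 h, OS 3 h, OS 12 h and AD 3 h rests on 9 to 44 reads, which limits what a change there can show.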
